A study of Homo sapiens with 6 samples.

Results

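The peaks described here are the H3K9me3 peaks on the arms of chromosomes 1, 16, 17, 19 and 22, which are known as gene-dense chromosomes. A peak belonged to the set when its midpoint on hg19 lay on 1 of these 5 chromosomes and outside a window reaching 2 Mb beyond the centromere and heterochromatin gaps, or above 18 Mb on chromosome 22. The set held 321 of the 2826 peaks of the study, namely 160 of 1334 in the control list, 138 of 1220 after 6 h of TGF-β1 and 23 of 272 after 24 h. The cells were PC-3, an established human prostate adenocarcinoma line from a bone metastasis. They were kept without serum for 24 h and then left untreated (control) or treated for 6 h or 24 h with the cytokine TGF-β1 at 5 ng/mL. The antibody of the precipitation was against H3K9me3. Each condition had 1 ChIP library and 1 input library, so no difference between conditions could be tested, and intervals given below cover counting error only. Neighbouring peaks are not independent.

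H3K9me3 is histone H3 trimethylated at lysine 9, a mark bound by HP1 proteins in compact chromatin. Beside centromeric repeats, it is known at the clusters of KRAB zinc finger genes, many of which stand on chromosome 19. KRAB zinc finger proteins themselves recruit TRIM28 and the methyltransferase SETDB1 to repeats, and SETDB1 writes the mark on chromosome arms. These gene clusters were therefore looked at in their own right. The sequence of the peaks could not be shown, as the genome at hand was not of the build of the files.

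Of the sets of autosomal arms compared, the gene-dense arms were the one where the 6 h list had fewer peaks than the control list. Their control density was 0.348 peaks per Mb (exact Poisson 95% interval 0.297 to 0.407), and their 6 h density 0.300 (0.252 to 0.355), with intervals that overlap. On the other autosomal arms the order was the opposite, with a control density of 0.302 per Mb (0.280 to 0.326) and a 6 h density of 0.465 (0.436 to 0.494). The 6 h list thus had 0.863 peaks per control peak on the gene-dense arms, against 1.54 on all other autosomal arms. Within those other arms, the ratio was 1.64 on the gene-poor arms of chromosomes 3, 4, 6, 13, 18 and 21. It was 1.84 on the arms of chromosomes 5, 10, 11, 14 and 20, a set chosen for its many peaks. The value of 1.54 includes both of these sets and is no separate comparison. Without chromosome 22, left out after its values were seen, the ratio on the gene-dense arms was 0.937. By chromosome it was 1.08 on chromosome 1, and 0.722, 0.816, 0.905 and 0.278 on chromosomes 16, 17, 19 and 22. At 24 h the gene-dense arms held 0.0501 peaks per Mb (0.0317 to 0.0751) and the other autosomal arms 0.0416, with intervals that overlap.

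**Figure D1:**
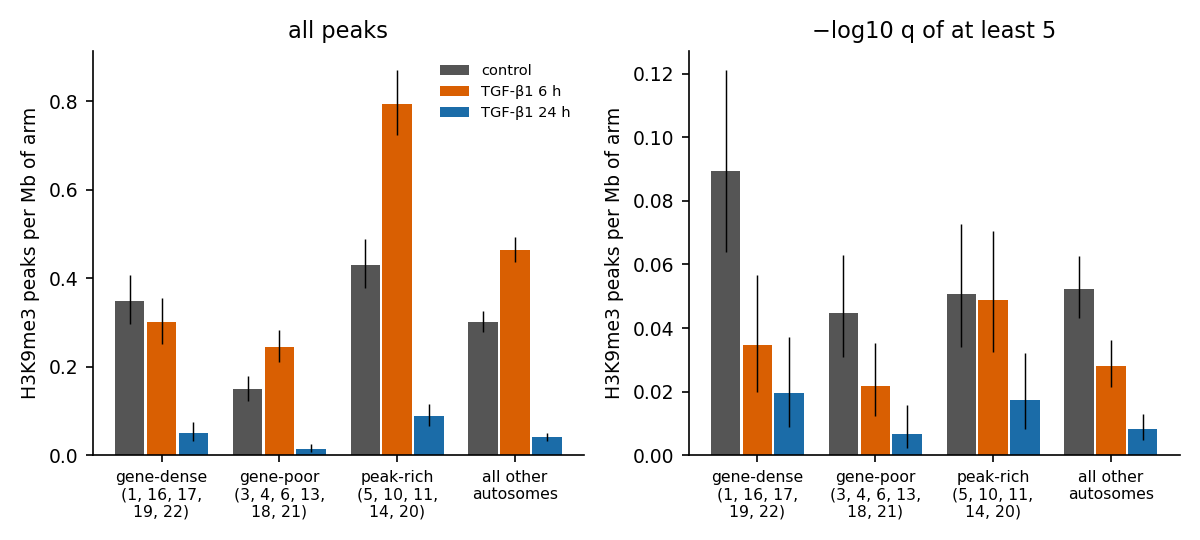
H3K9me3 peaks per Mb of chromosome arm in 4 sets of autosomal arms, for all peaks (left) and for those of a −log10 q of 5 or more (right). The set of all other autosomes includes the gene-poor and the peak-rich sets. Bars are counts over length in the 3 lists and lines are exact Poisson 95% intervals. In the left panel the 6 h bar is below the control bar on the gene-dense arms (0.300 against 0.348) and above it in the other sets. In the right panel no 6 h bar is above its control bar.

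The same contrast seen as shares was 19.7% of the autosomal arm peaks of the control list (exact binomial 95% interval 16.98 to 22.6), 12.1% of those of the 6 h list (10.2 to 14.1) and 20.4% of those of the 24 h list (13.4 to 29.0). The gene-dense arms make up 17.5% of the length of the autosomal arms. Peaks whose −log10 q was 5 or more are taken as the stronger ones. Of these the gene-dense arms held 41 in the control and 16 at 6 h, a ratio of 0.390. The other autosomal arms held 113 and 61, a ratio of 0.540. Without chromosome 22 the gene-dense arms held 29 and 15, a ratio of 0.517, close to that of the other arms. Of the weaker peaks the gene-dense arms held 119 and 122, a ratio of 1.03, and the other autosomal arms 541 and 944, a ratio of 1.74. The lower count at 6 h on the gene-dense arms was thus in the stronger peaks, and the higher count on the other arms in the weaker ones. Among the stronger peaks the order of the control and 6 h lists was the same on the gene-dense arms and the rest. Between the gene-dense arms and the rest, the ratios of the weaker peaks lay further apart (1.03 against 1.74) than those of the stronger ones (0.390 against 0.540).

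Stronger control peaks were more frequent on the gene-dense arms than on the rest. Those with a −log10 q of 5 or more stood at 0.0893 per Mb in the control (0.0641 to 0.121), against 0.0522 on all other autosomal arms (0.0430 to 0.0628). Of the 41 such control peaks, 12 were on chromosome 22, and without that chromosome the density was 0.0681 per Mb (0.0456 to 0.0978), an interval that overlaps that of the other arms. Peaks this strong made up 25.6% of the control members (19.1 to 33.1). On all other autosomal arms the control share was 17.3% (14.5 to 20.4), and over the whole control list 41.3%. At 6 h they were 11.6% of the members (6.77 to 18.1), beside 6.07% on the other arms and 8.85% of the whole list. At 24 h they were 9 of 23 members, or 39.1% (19.7 to 61.5), beside 20% on the other arms and 60.3% of the whole list. Whole lists also count peaks outside the autosomal arms. Without chromosome 22 the shares of the members were 20.4%, 11.3% and 30% in the order control, 6 h, 24 h.

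Most members were small peaks that rested on few fragments. The number of fragments at each summit, the pileup, and the local background were solved from the authors' fold and −log10 p. The pileup came out whole in 159 of 160 control members, in all 138 at 6 h and in all 23 at 24 h. Control members had a median pileup of 15 fragments and a lowest of 10. Those at 6 h had 14 and 10, and those at 24 h 21 and 15. A count of 15 has an exact Poisson 95% interval of 8.40 to 24.7. Pileups of at most 15 fragments made up 50.6% of the control members and 65.2% of those at 6 h. At 24 h they were 8.70%, in a list whose genome-wide background was 2.66 fragments, against 1.89 in the control and 1.73 at 6 h. The authors' fold enrichment, the ratio of pileup to local background with 1 added to each, had medians of 4.08, 4.16 and 3.77 in the order control, 6 h, 24 h. The local background was no more than 5% above the genome-wide one, the lowest of the list, in 29.4% of the control members, beside 23.8% of the whole control list. These shares were 18.8% beside 16.1% at 6 h and 13.04% beside 5.88% at 24 h. On all other autosomal arms they were 27.8%, 15.9% and 13.3% in the order control, 6 h, 24 h. The median width was 235 bp, 269.5 bp and 241 bp, and the members covered 42.1 kb, 41.05 kb and 6.01 kb.

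**Figure D2:**
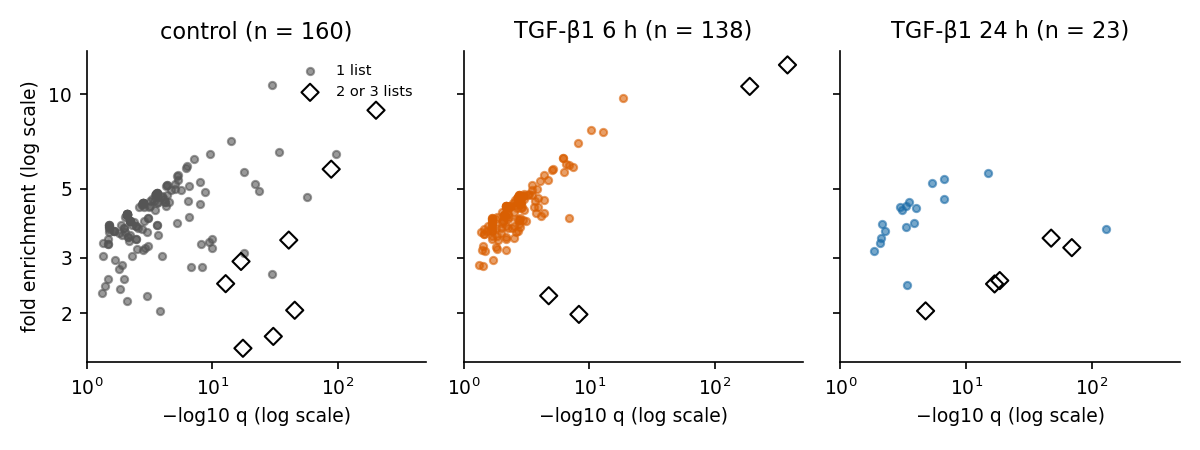
Fold enrichment against −log10 q, both on log scales, for every member peak of the control (n = 160), 6 h (n = 138) and 24 h (n = 23) lists. Filled points have a peak in 1 list, and open diamonds overlap a peak of another list. The control diamonds have a −log10 q of 12.75 to 200 and those at 24 h of 4.76 to 69.4, and filled points reach 96.0 and 130. The 24 h diamonds have folds of 2.03 to 3.47, below the median of that list's members (3.77). At 6 h, 2 diamonds have the highest folds of the panel (12.4 and 10.6) and 2 the lowest (2.27 and 1.98).

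The members were unevenly spread over the 9 arms. The long arm of chromosome 1 held 41 control peaks, 52 at 6 h and 9 at 24 h (0.392, 0.497 and 0.0860 per Mb). Its short arm, which is longer, held 24, 18 and 1. The long arm of chromosome 17 was dense in both longer lists, with 35 control peaks (0.649 per Mb, 0.452 to 0.902) and 28 at 6 h (0.519, 0.345 to 0.750), and it had 3 at 24 h. The short arm of chromosome 17 held 3, 3 and 0. On chromosome 19 the short arm held 15, 11 and 1 peaks and the long arm 6, 8 and 0. Chromosome 16 held 10, 3 and 4 peaks on the short arm and 8, 10 and 2 on the long arm. It was the sparsest of the 5 chromosomes in the control (0.239 per Mb), while at 24 h its 0.0796 per Mb was second to chromosome 22. Between the control and 6 h lists the lowest ratio of counts, 0.278, was on chromosome 22, with 18 control peaks (0.540 per Mb, 0.320 to 0.854) and 5 at 6 h (0.150, 0.0487 to 0.350). It held 3 at 24 h, and there the ratio to the control was lowest on chromosome 19 (0.0476). A count of 0 on the short arm of chromosome 17 or the long arm of chromosome 19 at 24 h allows up to 0.182 and 0.125 peaks per Mb.

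**Figure D3:**
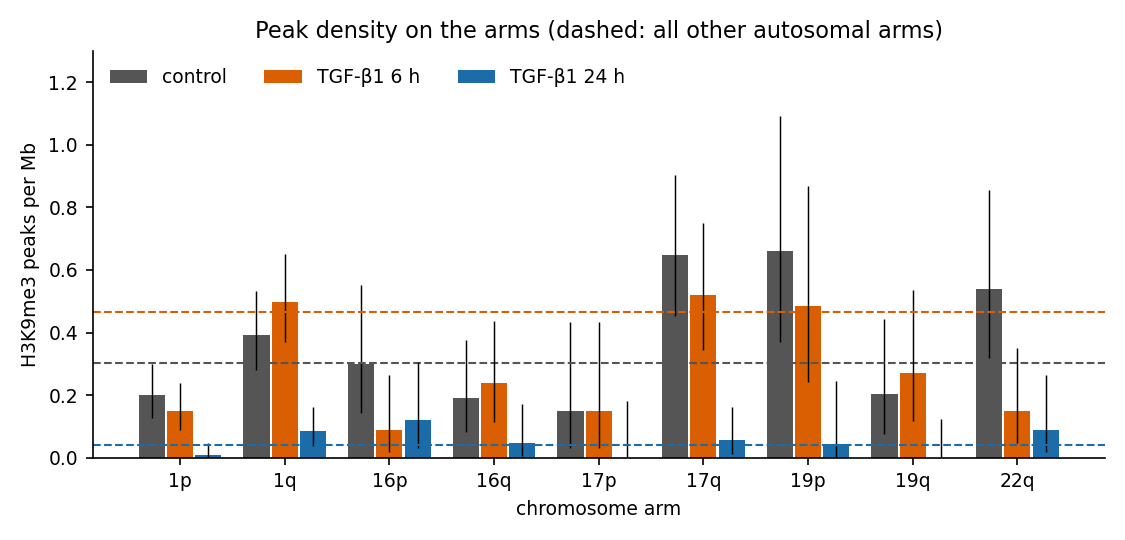
H3K9me3 peaks per Mb on the 9 arms of chromosomes 1, 16, 17, 19 and 22 in the 3 lists. Lines on the bars are exact Poisson 95% intervals, and dashed lines give the density of each list on all other autosomal arms. The control bars of 17q, 19p and 22q are the highest of that list (0.649, 0.661 and 0.540), and the 6 h bars of 1p, 16p, 17p and 22q (0.0900 to 0.151) are the lowest of that list, below its dashed line.

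Few members were found in more than 1 list. Of the 138 members at 6 h, 4 overlapped a control peak by at least 1 bp (2.90%, 0.795 to 7.26), beside 5.25% of the whole 6 h list. Of the 23 at 24 h, 4 overlapped a control peak (17.4%, 4.95 to 38.8), beside 51.5% of the whole 24 h list, and 2 overlapped a 6 h peak (8.70%, 1.07 to 28.04), beside 17.3%. Without chromosome 22 both came to 1 of 20. On all other autosomal arms the shares were 2.49%, 11.1% and 11.1%, within the intervals of the members. In the other direction, 5 control members overlapped a 6 h peak and 4 a 24 h peak (3.13% and 2.50%, beside 5.02% and 9.82% of the whole control list), and 2 members at 6 h overlapped a 24 h peak (1.45%, beside 3.77%). Within 100 kb of a control peak lay 24 of the 138 members at 6 h and 7 of the 23 at 24 h. This was counted for members only, so it cannot be set beside the whole lists. Merged over the lists, the members formed 311 regions, and 152 were in the control alone, 134 at 6 h alone and 18 at 24 h alone. The remaining 7 regions (2.25%, beside 6.04%), each named below, were in 2 lists or in 3. They stood at the tip of 16p, on 19p and on 22q near the window, and with a margin of 5 Mb in place of 2 Mb 3 of them were left, those on chromosomes 16 and 19.

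Gene and repeat names given from here on come from general knowledge of hg19 and were attached after the values were seen. No annotation of that build was at hand to look them up. The RefSeq gene table at hand is on GRCh38.p14, and only distances between its genes were used.

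The strongest members of the 6 h list were a pair near the end of the short arm of chromosome 16, where HBA2 and HBA1 stand, the genes of the alpha chain of haemoglobin, which is made in red cell precursors. The first 6 h peak spanned 223147 to 223705 and the second 227049 to 227519. Their ends were 3814 bp apart, and the ends of HBA2 and HBA1 are 3812 bp apart in the table. At the first, the 6 h list had 543 fragments at the summit, a fold of 12.4 and a −log10 q of 378. The control list had a pair of peaks there, from 222907 to 223277 with 673 fragments and a fold of 1.68, and from 223469 to 223654 with 546 fragments and a fold of 2.04. The 24 h list had none. At the second, the control peak from 226711 to 227067 had about 578 fragments, the one pileup that did not come out whole, and a fold of 1.54. The 6 h peak had 299 fragments and a fold of 10.6, and the 24 h peak from 227289 to 227509 had 152 fragments and a fold of 2.54.

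Between the control and 6 h lists, the folds at this locus differed mainly in their local background. Relative to the genome-wide background of each list, the summit pileups of the first region were 357 and 289 in the control and 315 at 6 h. Its local backgrounds were 211 and 141 in the control and 24.8 at 6 h. In the second region the pileups were 306, 173 and 57.1 in the control, 6 h and 24 h lists, and the local backgrounds 198, 15.8 and 22.3. The pileup was thus higher in the control than at 6 h in the second region and close to it in the first. The fold was higher at 6 h in both. These values belong to different positions. In the second region the control summit was at 226995 and the 6 h summit at 227429. In the first the control summits were at 223220 and 223545 and the 6 h summit at 223586. The folds are each list's own and are no measure of a change of the mark.

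**Figure D4:**
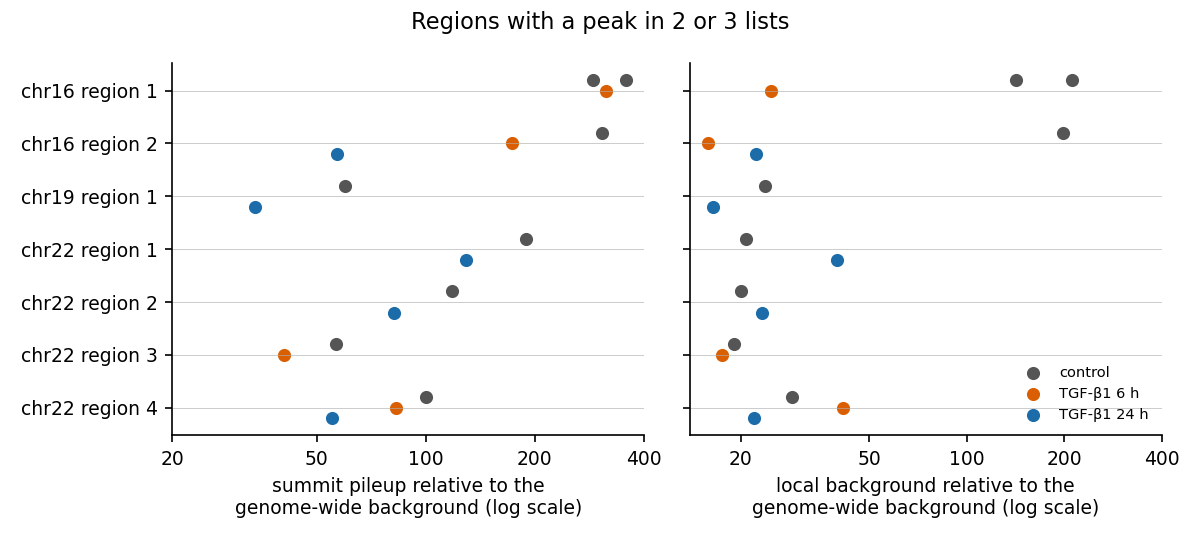
Summit pileup (left) and local background (right), each relative to the genome-wide background of its list, on log scales, for the 7 member regions with a peak in 2 or 3 lists. Points are single peaks, regions are numbered in order of position on each chromosome, and the first chromosome 16 region has 2 control peaks. In each region the highest pileup is a control peak, and the chromosome 16 regions have control local backgrounds of 141 to 211 against 15.8 and 24.8 at 6 h.

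The part of 22q nearest the excluded window held 12 of the 41 stronger control members. This is 22q11, known for low copy repeats, long near-identical blocks in which reads are hard to place. Between 18 and 22 Mb the control list had 15 of its 18 peaks of this chromosome, including every one whose −log10 q was 5 or more. The 6 h list had 3 there and the 24 h list 3. The local background of these control peaks had a median of 9.86 times the genome-wide one and reached 42.2, where the median over all control members was 1.49. How the placing of reads in repeats bears on these peaks was not tested.

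The highest −log10 q of the control members, 200, belonged to the 22q11 peak from 18717924 to 18718223. It had 356 fragments and a fold of 8.89, and the 24 h peak there, from 18717968 to 18718207, had 344 fragments and a fold of 3.24. These pileups were 189 and 129 times the genome-wide background, and the local backgrounds 20.7 and 39.7 times. The 6 h list had no peak at this region. The flanking control peaks from 18688323 to 18688649 (178 fragments, fold 4.68) and from 18721205 to 18721525 (213 fragments, fold 2.66) had no counterpart in either treated list.

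A second 22q11 group from 18878387 to 18884107 held 4 control peaks, 2 at 6 h and 2 at 24 h. Its first region had 223 fragments and a fold of 5.76 in the control and 217 fragments and a fold of 3.47 at 24 h. Its second, from 18879652 to 18880047, had 107 fragments (fold 2.92) in the control and 70 (fold 2.27) at 6 h. The control peak from 18881828 to 18882122 (77 fragments, fold 6.55) stood alone. The region from 18883636 to 18884107 was in all 3 lists, with 189, 143 and 147 fragments and folds of 3.42, 1.98 and 2.48 in the control, 6 h and 24 h lists. Relative to the genome-wide background these pileups were 100.1, 82.9 and 55.2. Further along 22q11, the control peak from 20689176 to 20689553 (220 fragments, fold 6.43, −log10 q 96.0) was in the control list alone.

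On chromosome 19, 1 region was in more than 1 list. It spanned 7515551 to 7515933 on the short arm, with 113 fragments and a fold of 2.48 in the control and 90 fragments and a fold of 2.03 at 24 h. These were 59.9 and 33.8 times the genome-wide background, over local backgrounds of 23.8 and 16.4 times. This peak was the one chromosome 19 member of the 24 h list. It stood outside the zinc finger windows.

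The zinc finger gene windows of chromosome 19 did not stand out in the control list. These 7 windows in whole Mb take up 15.8 Mb, or 30.3%, of the 52.1 Mb of the arms of this chromosome. They were set over the gene clusters from general knowledge, and no peak in them was assigned to a zinc finger gene. Of the 21 control peaks on the arms, 5 lay in them (23.8%, 8.22 to 47.2), and of the 19 peaks at 6 h, 10 did (52.6%, 28.9 to 75.6). The interval of each holds the share of length. Widened by 1 Mb on each side, the windows took up 51.4% of the length and held 11 of the 21 control peaks (52.4%) and 14 of the 19 at 6 h (73.7%). Per Mb the control had 0.316 peaks inside the windows and 0.441 outside, and the 6 h list 0.633 and 0.248. None of these 15 peaks reached a −log10 q of 5. Their pileups were 11 to 23 fragments in the control and 10 to 22 at 6 h, and none overlapped a peak of another list.

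**Figure D5:**
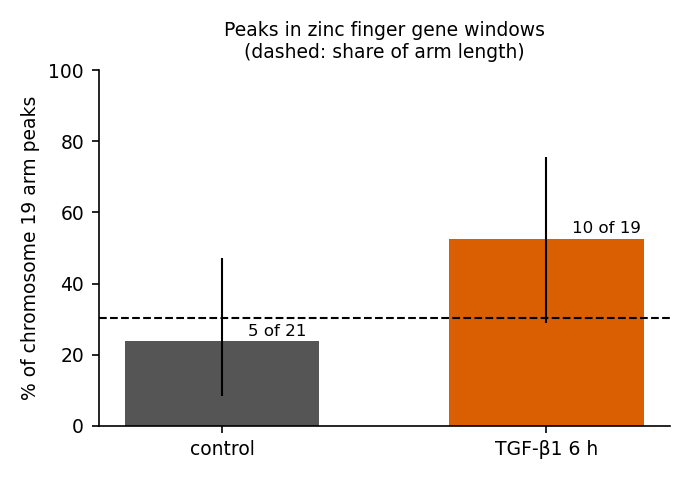
Share of chromosome 19 arm peaks that lay in the zinc finger gene windows in the control and 6 h lists, with exact binomial 95% intervals. The dashed line is the share of arm length in the windows (30.3%). The control bar (5 of 21) is below the line and the 6 h bar (10 of 19) above it, and both intervals cross it; the 24 h list had 1 peak on these arms, outside the windows.

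Of the peaks in the zinc finger windows, the control one of highest fold was at 11535329 to 11535512. It had 14 fragments, a fold of 5.13 and a −log10 q of 4.36. At 6 h the one of highest fold was at 53854412 to 53854656 on 19q, with 11 fragments, a fold of 4.40 and a −log10 q of 2.16. The one chain of members in these windows ran from 12661275 to 12781074 and comprised 1 control peak and 3 from the 6 h list. Its 6 h peaks had 15, 22 and 10 fragments and folds of 3.15, 4.17 and 3.62, and its control peak had 12 fragments and a fold of 3.44. No 2 of these overlapped. At such counts neither a presence nor an absence of the mark over these genes can be read from the lists.

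The control list held chains of peaks in a pair of tandem gene arrays where neither treated list had a peak. On the long arm of chromosome 1, 6 control peaks lay from 228744262 to 228780893, in the array of 5S ribosomal RNA genes, which RNA polymerase III transcribes. They spanned 36632 bp, and the 17 numbered 5S genes of the table span 35893 bp. These peaks had 23 to 32 fragments, folds from 2.39 to 4.04 and local backgrounds of 3.40 to 6.80 times the genome-wide one. The nearest member at 6 h, from 228645135 to 228645428, lay outside this span, and the 24 h list had no member in it. On 17q, 4 control peaks from 41382177 to 41466685 lay in the array of U2 small nuclear RNA genes, part of the spliceosome. They had 48, 42, 58 and 74 fragments, folds of 2.28, 2.19, 3.22 and 2.03 and local backgrounds of 9.18 to 19.04 times the genome-wide one. Neither treated list had a member in this span. Most of these control peaks were weak, as 1 of the 6 and 1 of the 4 reached a −log10 q of 5 (6.50 and 9.94).

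A further chain on 17q, from 45144325 to 45273979, held 3 control peaks and 2 at 6 h, none of them overlapping. Its strongest control peak was at 45213628 to 45214095 (52 fragments, fold 3.45, −log10 q 9.91). Its 6 h peaks had 16 and 15 fragments and folds of 3.75 and 4.37.

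The remaining peaks with the highest folds were each in 1 list. In the control the highest was on 17q from 44073764 to 44074033, within MAPT, the gene of the microtubule protein tau, with 44 fragments, a fold of 10.7 and a −log10 q of 29.8. The next of this kind were on 1q21, a duplication-rich band, from 145318687 to 145318943 (29 fragments, fold 7.12) and near the end of 1p from 386130 to 386474 (22 fragments, fold 6.45).

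At 6 h the third highest fold, 9.74, was on 17q from 48163177 to 48163447, within ITGA3, the gene of an integrin alpha chain that binds laminin. It had 29 fragments, a −log10 q of 18.4 and a local background of 1.205 times the genome-wide one, and neither other list had a peak there. A pair on 1q stood at S100A9 and S100A8, the genes of the subunits of calprotectin, a protein of neutrophils and monocytes. These peaks, from 153333155 to 153333428 and from 153362563 to 153363010, had 18 and 20 fragments and folds of 6.97 and 7.70 over a local background at the genome-wide level. They lay 29134 bp apart, and the genes lie 29008 bp apart in the table. The 6 h peak on 1q from 184943909 to 184944131 had 26 fragments and a fold of 7.60. The origin of the DNA under the 6 h peaks at HBA2, HBA1, S100A9 and S100A8 was not tested.

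At 24 h the highest −log10 q, 130, was near the end of 1p from 569302 to 569507, in a stretch known as a nuclear copy of mitochondrial DNA. It had 526 fragments and a fold of 3.72, with a pileup 197.6 times and a local background 52.8 times the genome-wide one. The other lists had no member there. By fold the first and the third were on chromosome 16 beside the window, from 33046762 to 33047013 (42 fragments, fold 5.59) and from 32152099 to 32152302 (18 fragments, fold 5.19). On 1q the peaks from 234925609 to 234925815 (fold 5.38), from 207925044 to 207925284 (fold 4.62) and from 149980988 to 149981193 (fold 4.52) had 21, 26 and 16 fragments. The sixth by fold was on 16q from 56978895 to 56979231 (16 fragments, fold 4.39).

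Members close to the excluded windows took a larger share in the control and at 24 h than those stretches take of the length, and much of this was on chromosome 22. The 5 Mb next to the windows make up 9.80% of the arm length. They held 31 of the 160 control members (19.4%, 13.6 to 26.4), 15 of the 138 at 6 h (10.9%, 6.21 to 17.3) and 7 of the 23 at 24 h (30.4%, 13.2 to 52.9). Without chromosome 22, where they make up 9.39% of the length, they held 16 of 142 (11.3%, 6.58 to 17.7), 12 of 133 (9.02%, 4.75 to 15.2) and 4 of 20 (20%, 5.73 to 43.7), and each interval holds the share of length. In the control their median −log10 q was 6.36, against 2.82 in the rest, and 19 of the 41 control members whose −log10 q was 5 or more were among them. Of those 19, 12 were on 22q11. Their median local background, in units of the genome-wide one, was 2.38 against 1.36 in the rest for the control and 6.97 against 1.75 for 24 h. Within 5 Mb of a chromosome end lay 20 control members (12.5%), 8 at 6 h (5.80%) and 2 at 24 h (8.70%), where these stretches make up 9.80% of the length.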

How the data were processed

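H3K9me3 ChIP-seq of PC-3 cells gave 3 peak lists, 1 per ChIP library, called separately; the 3 input libraries were not analysed here on their own. Per the submitters' processing notes, the tools were MACS2 2.1.1.20160309, BWA, FastQC 0.11.9 and Trimmomatic, and the build hg19. Their settings: not given in the sources used here. Peak names in both treated lists mention filtered reads while control names do not, which leaves unclear whether the 3 lists had the same steps. The deposited columns give each peak's start, end, score and summit offset. The deposited score was 10 times −log10 q, rounded down. The fold enrichment (a ratio), −log10 p and −log10 q are the authors' values for single peaks, used here for ranking or filtering inside 1 list.

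From these, Python 3.11.15 with scipy 1.17.1 solved the summit pileup and local background under the Poisson model of MACS2, taking pileups within 0.01 of a whole number as whole; the solver was tested on simulated data. The lowest background of a list was taken as its genome-wide background. Depth per library is not given by the lists. Chromosome lengths, gaps and zinc finger windows were typed in from general knowledge of hg19. Positions are 1-based.

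Peaks overlapped when they shared at least 1 bp, and chains joined members at most 100 kb apart. Named peaks were those in 2 or more lists, the 6 of highest fold and of highest −log10 q in each list, and chains of at least 4. The peak of highest fold in the zinc finger windows was also named for each list. Other stretches were chosen after values were seen. So were the gene names, which depart from the rule, since it allowed them only with an hg19 annotation. Members and lists were chosen with earlier results of these data known. Intervals are exact 95% binomial or Poisson intervals. Alternatives changed the cut on −log10 q or fold, the margin, the overlap, the chromosomes (22 left out after the data were seen) and the windows.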

Additional observations from a re-analysis of the deposited data

How the results depend on the processing

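No paired analysis was possible because a condition is a single library. The gene-dense arms held 12% of the whole control list, 11.3% of the 6 h list and 8.46% of the 24 h list. With a −log10 q of 5 or more the control share was 7.44% (41 of 551) and the 6 h share 14.8% (16 of 108), so that the order of these lists was reversed. These are shares of whole lists, which also count peaks outside the autosomal arms. The other autosomal arms held 113 of these control peaks and 61 of those at 6 h. Among peaks at or over their list's median fold the control share was 14.1% and the 24 h share 14%. Leaving out chromosome 1 gave 7.12%, 5.57% and 4.78% for control, 6 h and 24 h. Counted over peaks outside the windows of every chromosome the control share was 19.5% and the 24 h share 19.7%. The overlap of 6 h members with the control was 18.8% at a −log10 q of at least 5 (3 of 16). With both lists cut at or over their own median fold it was 0% (0 of 75, upper bound 4.80%). The 6 h members with folds of 12.4 and 10.6 did overlap control peaks, but those had folds of 1.54 to 2.04 and fell to the cut. With the same cut the overlap of 24 h members with 6 h was 0% (0 of 19, upper bound 17.6%). Overlaps at changed cuts were counted for members only, so they cannot be set beside the whole lists. Regions in 2 or more lists numbered 3 with a 5 Mb margin, and 3 without chromosome 22, an alternative chosen after the data were seen. Zinc finger windows widened by 1 Mb, which then take up 51.4% of the arm length, held 52.4% of the control peaks of chromosome 19. The windows as entered held 0% (0 of 2) at a −log10 q of at least 5. Removing a chromosome or changing the denominator moves a share by construction; the cause of the other shifts was not tested. In 28 further alternatives the value stayed within the interval of the main value, or for counts within 1.5 times. Few fragments per summit limit what an absent peak shows.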
